A study of Mus musculus with 16 samples.

Results

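The early response of the mouse hippocampus to an activated form of the transcription factor CREB was measured on 4 of the 16 arrays of a series, chosen by their titles: 2 from VP16-CREB mice induced for 1 week and 2 from the control littermates of that induction. The series profiled hippocampi of mice with raised CREB activity (VP16-CREB) and with inhibited CREB activity (A-CREB), each against littermates, on a whole-transcriptome Affymetrix mouse array. All 4 samples came from C57BL/6J mice aged 3 weeks that were reared on doxycycline (dox), which was withdrawn 1 week before the tissue was taken. The VP16-CREB mice carried the tetO-VP16-CREB transgene and are described as bitransgenic, the littermates as WT. Dox withdrawal was thus common to both sides, and the transgenes were the stated difference. The driver line that switches the tetO transgene is not named in the labels, so the cells that carried VP16-CREB are not given here. Each array held RNA pooled from the hippocampi of 3 to 4 mice alike in age, sex and genotype, so a replicate is a pool, n = 2 on each side, and the spread between animals was not measured.

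CREB binds the cAMP response element (CRE) in promoters and, once phosphorylated, recruits coactivators that switch on genes of neuronal activity, survival and plasticity. VP16 is the strong activation domain of a viral protein. Joined to CREB, it drives CRE-bearing genes without the phosphorylation step. In a dox-regulated system of the kind that is off with the drug, removal of dox starts expression of the transgene.

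The CRE is the sequence that the fusion protein is built to bind, so the promoters of the genes that rose most were read first. RefSeq promoter windows (GRCm38.p6, 250 bases before to 50 after each start) matched 41 of the 46 named genes called higher. Both strands were searched for the palindromic CRE, TGACGTCA, and for its core, TGACG, which the palindrome itself contains on each strand. The palindrome stood in 1 of the 41 (2.4%), that of Gusb, against 2.0% of all 27025 genes with a window and 3.5% of the 10298 tested genes with one. The core stood in 11 of the 41 (26.8%), against 6228 of all 27025 genes and 34.9% of tested genes. For comparison, the list of known CRE-driven genes used below held the palindrome in 6 of 27 promoters (22.2%) and the core in 22 (81.5%). Of the 20 most raised genes, 16 had a window; 5 of the 16 held the core and 0 the palindrome, and the other 4 were not searched. The 250 bases upstream of those 5 starts are given 5′ to 3′ on the gene's strand, with TGACG, or CGTCA where it lies on the other strand, in capitals. They show what the most raised genes with a match have in this window, which is a description of letters and not of binding.

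Timp1 (chrX:20869916-20870165, + strand): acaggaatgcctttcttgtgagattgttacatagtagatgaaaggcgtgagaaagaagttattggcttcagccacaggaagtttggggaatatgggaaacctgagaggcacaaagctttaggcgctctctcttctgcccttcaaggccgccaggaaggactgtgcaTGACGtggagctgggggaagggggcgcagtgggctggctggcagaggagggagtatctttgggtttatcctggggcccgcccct
Pax1 (chr2:147364744-147364993, + strand): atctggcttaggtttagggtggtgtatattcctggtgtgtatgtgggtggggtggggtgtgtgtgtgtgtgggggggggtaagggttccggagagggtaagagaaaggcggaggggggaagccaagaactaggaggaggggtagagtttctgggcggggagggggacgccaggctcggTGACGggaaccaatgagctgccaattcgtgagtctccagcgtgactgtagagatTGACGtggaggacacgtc
Arhgdib (chr6:136939528-136939777, - strand): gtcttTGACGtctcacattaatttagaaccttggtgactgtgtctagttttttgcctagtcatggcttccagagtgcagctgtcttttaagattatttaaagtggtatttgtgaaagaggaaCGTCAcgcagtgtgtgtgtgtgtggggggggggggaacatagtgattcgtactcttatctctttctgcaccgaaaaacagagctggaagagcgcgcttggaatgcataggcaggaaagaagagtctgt
H2-K1 (chr17:34000348-34000597, - strand): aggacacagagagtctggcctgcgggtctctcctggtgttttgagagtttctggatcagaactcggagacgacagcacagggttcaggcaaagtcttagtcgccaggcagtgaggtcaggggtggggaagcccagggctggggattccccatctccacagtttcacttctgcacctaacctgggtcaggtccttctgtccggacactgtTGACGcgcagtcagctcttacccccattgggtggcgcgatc
Gm13205 (chr4:148952323-148952572, - strand): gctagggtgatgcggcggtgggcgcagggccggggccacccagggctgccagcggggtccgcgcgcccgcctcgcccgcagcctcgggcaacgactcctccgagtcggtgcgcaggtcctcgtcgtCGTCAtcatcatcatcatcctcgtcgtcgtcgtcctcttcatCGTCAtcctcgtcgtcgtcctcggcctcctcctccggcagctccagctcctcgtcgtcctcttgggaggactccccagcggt

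Timp1 and H2-K1 each had 1 core in these bases, and Pax1, Arhgdib and Gm13205 each had 2. A match this short says nothing of occupancy.

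Of 45101 probe sets, 27044 passed the filter for brightness and were tested on log2(intensity + 10) in a limma model of all 16 arrays, which share 1 estimate of the spread. At a Benjamini-Hochberg adjusted p under 0.05, 64 probe sets (0.237%) were called: 59 higher (0.218%) and 5 lower (0.0185%) in VP16-CREB. With each array centred on its median the split was 50 higher and 12 lower, and without VP16-CREB pool 2 it was 17 higher and 22 lower. The 59 hold 51 with a single gene symbol, which name 46 genes, and the 5 name 4 genes. Every called probe set differed by at least 2-fold, and its pools did not overlap; pools also failed to overlap in 28.6% of all tested probe sets, 15.7% higher and 12.9% lower. At an unadjusted p under 0.05 there were 1424, of which 992 were higher and 432 lower. The 59 rises were led by a transcript read by Creb1 probe sets, by Dgkk and Pdyn, and by genes of microglia, antigen presentation and reactive astrocytes. Fitted on the 4 arrays alone, limma called 0 probe sets, with a lowest adjusted p of 0.07159 and 1284 at an unadjusted p under 0.05. An exact permutation test of 2 against 2 pools cannot go below p = 0.333 (two-sided).

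The calls also depended on single pools. Of the 64, limma kept 14 without VP16-CREB pool 1, 16 without VP16-CREB pool 2, 28 without control pool 1 and 21 without control pool 2. Left with any 3 of the 4 arrays, 12 probe sets kept their call, and 8 of these name 7 genes: Creb1, Dgkk, Pdyn, H2-Ab1, H2-Q5, Arhgdib and Mpo. For all other genes below described as raised or lowered, the call at adjusted p under 0.05 ended when at least 1 of the 4 arrays was left out. Of the 7, at least Dgkk and Mpo passed the filter only through VP16-CREB arrays. Median intensities of the 4 arrays ran from 80.0 to 93.2, the highest in VP16-CREB pool 2. Correlations of log2 intensity between arrays ran from 0.967, between the 2 littermate pools, to 0.974. The 2 VP16-CREB pools correlated at 0.973, and pools of opposite sides at 0.968 to 0.974. The 3′/5′ actin ratios of the arrays ran from 1.40 to 2.00, the highest in control pool 2, with the next at 1.59 in VP16-CREB pool 1. Xist was bright and Y-linked genes were dim on every array.

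**Figure D1:**
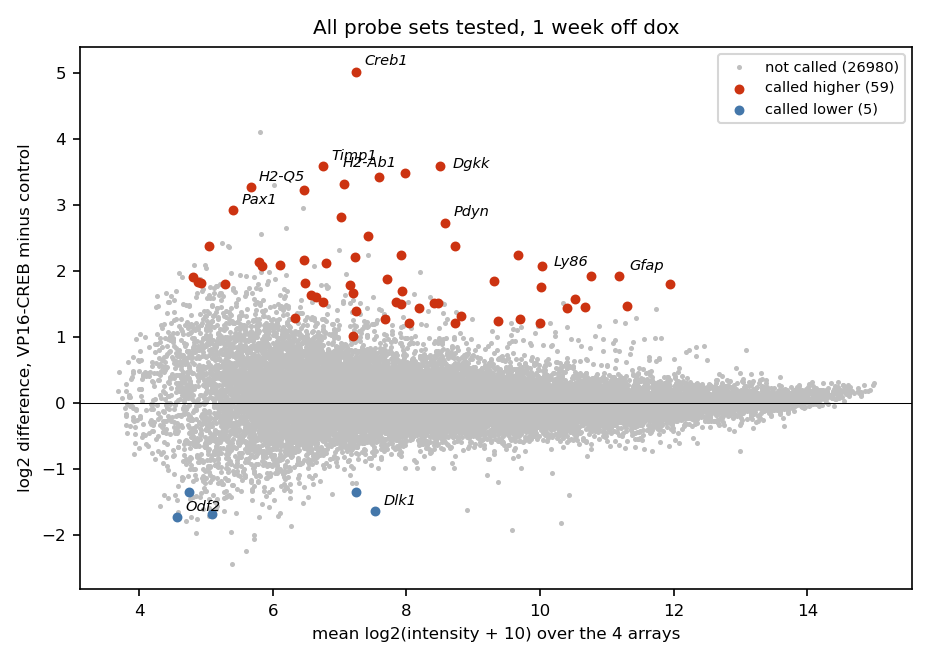
Each point is a tested probe set: the x axis gives its mean log2(intensity + 10) over the 4 arrays and the y axis its log2 difference, VP16-CREB minus control. The 59 probe sets called higher (red) reach a log2 difference of 5.01 at Creb1, the 5 called lower (blue) reach -1.73 at Odf2, and the scatter of uncalled probe sets (grey) widens toward low intensity.

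The largest rise was on a probe set annotated to Creb1. On this one, 1421582_a_at, the littermate pools read 5.38 and 36.4 and the VP16-CREB pools 735 and 991, a log2 difference of 5.01 ± 0.55 (SE; limma adjusted p = 0.001427). A second Creb1 probe set, 1452529_a_at, read 20.5 and 69.4 in littermates against 282 and 398, a log2 difference of 2.81 ± 0.44 (adjusted p = 0.0178). Both VP16-CREB pools lay far above both littermate pools on these probe sets. The other 3 Creb1 probe sets that passed the filter read the gene at log2 differences of 0.19, -0.16 and -0.19, none called and all with overlapping pools. The second call ended without control pool 1 (adjusted p = 0.1287), VP16-CREB pool 1 (adjusted p = 0.115) or VP16-CREB pool 2 (adjusted p = 0.1191). Thus 2 of the 5 Creb1 probe sets read higher, and which of the 5 read the transgene was not examined. Crem, a CREB relative that CREB activity itself can induce, was not called. Its brighter probe set read 462 and 515 in littermates and 827 and 884 in VP16-CREB pools (log2 difference 0.80 ± 0.27, adjusted p = 0.5789), and its other one differed by 0.82 ± 0.35 (adjusted p = 0.8425). On neither did the pools overlap.

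Read at the brightest probe set of each gene, 0 of 15 measured members of the CREB, CREM and cofactor list were called by limma, with 1 higher and 1 lower at an unadjusted p under 0.05. Over all 12732 genes read this way, 38 were called higher (0.298%) and 1 lower (0.00785%), 456 were higher and 200 lower at an unadjusted p under 0.05, and the median log2 difference was -0.01. The 15 had the same median, -0.01. Atf2 and Atf4, bZIP factors of the same wider family and the brightest members, differed by -0.05 ± 0.24 and 0.04 ± 0.26. The lowest member was Crtc1, a CREB coactivator, at 1034 and 1085 in littermates and 645 and 787 in VP16-CREB pools (log2 difference -0.56 ± 0.22, adjusted p = 0.7417).

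Dgkk and Pdyn stood out as well. Dgkk encodes diacylglycerol kinase kappa, which phosphorylates the lipid messenger diacylglycerol. Its littermate pools read 91.7 and 97.6 and its VP16-CREB pools 1293 and 1196, a rise of 11.99-fold on the log2(intensity + 10) scale (log2 difference 3.58 ± 0.27, adjusted p = 0.0001155). The replicates on each side were close together and far from the other side. The other 7 diacylglycerol kinases measured ran from -0.31 to 0.40 and none was called, so the family's median was 0.01. Dgkk passed the filter only through VP16-CREB arrays, and without it the median was -0.03. Pdyn, the precursor of the dynorphin opioid peptides and a known CREB target, read 158 and 121 in littermates and 818 and 1154 in VP16-CREB pools. That is a 6.62-fold rise (log2 difference 2.73 ± 0.23, adjusted p = 0.0001379). Dgkk and Pdyn kept their calls in 14 of the 15 alternative fits, failing only where the 4 arrays were fitted alone.

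Pax1, a developmental transcription factor known from the skeleton and thymus, went from 7.27 and 3.74 to 85.4 and 132 (log2 difference 2.92 ± 0.48, adjusted p = 0.02192). It was at the bottom of the scale in both littermate pools and passed the filter only through VP16-CREB arrays, as did 19 of the 64 called probe sets in all. Pmaip1, which encodes the pro-apoptotic protein Noxa, rose from 31.0 and 32.8 to 152 and 205 (log2 difference 2.16 ± 0.28, adjusted p = 0.005779). Gm13205, a gene model without an established role, rose from 96.8 and 102 to 346 and 437 (log2 difference 1.87 ± 0.29, adjusted p = 0.01636). Each of these had both VP16-CREB pools above both littermate pools. Leaving out any 1 of the 4 arrays ended the calls of Pax1 and Gm13205, with adjusted p from 0.09797 to 0.1437 and from 0.09607 to 0.1159 in limma, and that of Pmaip1 ended without VP16-CREB pool 2 (adjusted p = 0.0532).

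**Figure D2:**
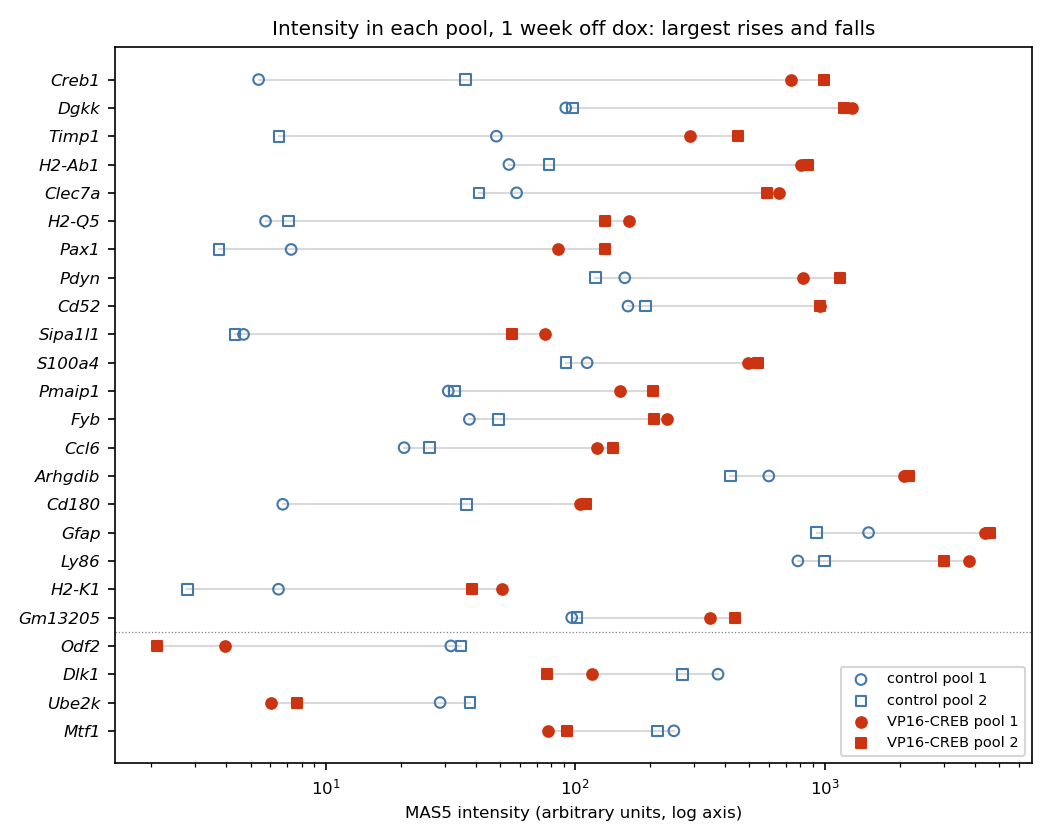
MAS5 intensity (x axis, arbitrary units, log scale) of the 20 genes that rose most and the 4 named genes that fell, 1 row per gene and 1 symbol per pool, with open blue for littermates and filled red for VP16-CREB. No gene has overlapping pools, and Dgkk, Arhgdib, Gfap and Ly86 are bright in VP16-CREB while H2-K1 at this probe set and Sipa1l1 stay dim.

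Pdyn was the only one of 37 measured CRE-driven target genes that limma called. The list, of genes known from earlier work to be driven through CREs, had a median log2 difference of 0.26, and 11 members were higher and 1 lower at an unadjusted p under 0.05. Pools did not overlap in 16 members that were higher and 6 that were lower, against 13.4% and 15.4% of all genes. This median rested on control pool 1: without that array it was -0.01. Of the 37, 3 passed the filter only through VP16-CREB arrays, and without them the median was 0.28. Members named next were chosen after their values were seen, and none of them was called. Atf3, a stress-induced bZIP factor, read 65.4 and 73.0 in littermates and 387 and 345 in VP16-CREB pools (log2 difference 2.25 ± 0.55, adjusted p = 0.1882). Pcsk1, a prohormone convertase, read 88.3 and 133 against 288 and 324 (1.41 ± 0.34, adjusted p = 0.1601). Fos, the AP-1 component, read 1367 and 1525 against 3215 and 3650 (1.24 ± 0.32, adjusted p = 0.2147). These 3 had pools well apart, but their differences were too small against their SE for a call. Bdnf, the neurotrophin, read 606 and 1135 against 1645 and 1743 (1.02 ± 0.34, adjusted p = 0.5683). At the other end was Sik1, a kinase that restrains CREB coactivators, at 45.8 and 41.3 against 16.2 and 15.8 (-1.04 ± 0.46, adjusted p = 0.8883).

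The neighbouring groups held at most 1 call each. Over all 12732 genes 0.298% were called higher, and 456 were higher and 200 lower at an unadjusted p under 0.05. Of 27 activity-dependent immediate early genes 0 were called, with 6 higher and 1 lower unadjusted and a median of 0.15. Their pools did not overlap in 9 that were higher and 4 that were lower, against 13.4% and 15.4% of all genes. Their brightest members, Egr1 and Homer1, differed by -0.05 ± 0.21 and 0.07 ± 0.24. Egr1 is a zinc finger factor and Homer1 a postsynaptic scaffold. Of 18 feedback inhibitors of cAMP and MAP kinase signalling 0 were called (2 higher and 1 lower unadjusted, median 0.12), and the G protein regulators Rgs4 and Rgs2 differed by 0.09 ± 0.18 and -0.19 ± 0.26. Of 24 neuropeptides, granins and processing enzymes only Pdyn was called, with a median of 0.11. Npy, neuropeptide Y, read 2801 and 2661 in littermates against 3995 and 4522 (0.64 ± 0.26, adjusted p = 0.777) and was not called. Of 20 neurotrophic and growth factor genes 0 were called, 4 were higher and 0 lower at an unadjusted p under 0.05, and the median was -0.01. Ntrk2, the Bdnf receptor, and Igfbp4, a binding protein of insulin-like growth factors, differed by 0.12 ± 0.16 and -0.48 ± 0.22.

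Genes of activated phagocytes formed the group with the most calls: 7 of 27 measured members rose, 0 fell, and the median log2 difference was 1.01. Pools did not overlap in 25 of the 27, all higher, and 20 were higher at an unadjusted p under 0.05. Over all 12732 genes, 0.298% were called higher, 13.4% had higher pools without overlap, and 456 were higher unadjusted. Of the 27, 2 passed the filter only through VP16-CREB arrays; without them 6 were called and the median was 1.01. Clec7a, the beta-glucan receptor dectin-1, read 58.2 and 41.2 in littermates and 658 and 590 in VP16-CREB pools (log2 difference 3.42 ± 0.55, adjusted p = 0.01954). Cd52, a small surface glycoprotein of leukocytes, rose from 163 and 191 to 963 and 957 (2.38 ± 0.33, adjusted p = 0.008071). Ly86, which encodes the Toll-like accessory protein MD-1, rose from 781 and 999 to 3785 and 3003 (1.92 ± 0.31, adjusted p = 0.01954). Its partner Cd180 rose from 6.73 and 36.8 to 104 and 110 (2.07 ± 0.38, adjusted p = 0.04785). Cd68, a lysosomal protein of macrophages, rose from 393 and 266 to 1169 and 1207 (1.84 ± 0.29, adjusted p = 0.01636). The Fc receptors Fcgr2b and Fcgr3 rose by 1.51 ± 0.22 and 1.24 ± 0.21. The other 3 Fcgr2b probe sets were not called, at 0.55 (the brightest in littermates, adjusted p = 0.6492), 1.34 and 1.17. Each had both VP16-CREB pools above both littermate pools. All 7 calls ended without VP16-CREB pool 1 (limma adjusted p from 0.1036 to 0.2527) and without VP16-CREB pool 2 (from 0.05113 to 0.1797), 4 ended without control pool 1 and 5 without control pool 2. Members that were not called ran from 0.06 (Lpl) to 3.30 (Cst7, adjusted p = 0.07344), and Apoe, the lipid carrier, at 0.09 ± 0.27 had overlapping pools. In a whole hippocampus, more cells of a type and more RNA per cell cannot be told apart.

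Homeostatic microglia genes, which resting microglia express, read higher in most cases but held no call: 0 of 14 passed in limma, 7 were higher and 0 lower at an unadjusted p under 0.05, and the median was 0.59. Pools did not overlap in 11 of the 14, all higher, against 13.4% higher of all genes. Csf1r, the receptor for the microglial growth factor Csf1, read 8739 and 4844 in littermates against 11245 and 7789, with overlapping pools (0.52 ± 0.29, adjusted p = 0.9996). Cx3cr1, the fractalkine receptor, read 869 and 622 against 1167 and 1152 (0.65 ± 0.29, adjusted p = 0.9212). The summed intensity of the 14 was 16014 and 11077 in littermate pools and 22188 and 17916 in VP16-CREB pools, and that of the 27 phagocyte genes 49293 and 41560 against 70671 and 63622. In the homeostatic sum, the littermate pools differed from each other by more than littermate pool 1 differed from VP16-CREB pool 2.

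Of the other leukocyte genes, Fyb, an adaptor protein of immune receptors, rose from 37.7 and 49.4 to 235 and 207 on 1 of its probe sets (2.11 ± 0.29, adjusted p = 0.008071), while its brighter probe set differed by 0.57 ± 0.21 (adjusted p = 0.6869). Arhgdib, a gene expressed in blood cells, rose from 598 and 419 to 2088 and 2180 (2.07 ± 0.22, adjusted p = 0.001427). Ccl6, a chemokine of macrophages, rose from 20.6 and 26.1 to 122 and 142 (2.09 ± 0.31, adjusted p = 0.01403), and its brighter probe set read 1.53 ± 0.31 (adjusted p = 0.07393). S100a4, a calcium-binding protein, rose from 112 and 91.8 to 492 and 543 (2.24 ± 0.38, adjusted p = 0.03036). Calls ended without VP16-CREB pool 1 (adjusted p = 0.115) or control pool 1 (adjusted p = 0.07337) for Fyb, and without any 1 of the arrays for Ccl6 (0.06071 to 0.115) and S100a4 (0.1188 to 0.1767). Markers of lymphocytes and granulocytes were mostly dim. Of 20 with a probe set, 17 were below the filter, and on the 4 arrays none of these 17 exceeded 62.8 in littermates or 58.6 in VP16-CREB, against a filter value of 99.1. They include Cd3e of T cells, at 14.5 and 20.1 in littermates and 22.2 and 23.1 in VP16-CREB, and Ms4a1 (CD20) of B cells, at 35.7 and 17.5 against 29.2 and 28.7. Of the 3 measured, Mpo was called. Mpo passed the filter only through VP16-CREB arrays, and without it 0 were called. It encodes myeloperoxidase, a granule enzyme of neutrophils and monocytes. It rose from 37.9 and 37.2 to 146 and 170 (1.82 ± 0.23, adjusted p = 0.005036). Cd8a, a T cell coreceptor, read 5.51 and 15.8 in littermates and 15.4 and 97.6 in VP16-CREB, with overlapping pools (1.39 ± 0.74, adjusted p = 0.9996). S100a8, another neutrophil gene, read 60.1 and 64.7 in littermates and 29.5 and 59.9 in VP16-CREB (-0.46 ± 0.59, adjusted p = 0.9996).

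Some genes of both arms of antigen presentation rose. The share called higher over all 12732 genes was 0.298%, and their median log2 difference was -0.01. In MHC class II, which displays peptides from engulfed material, 1 of 7 measured members was called, H2-Ab1, the class II beta chain. It read 54.3 and 78.5 in littermates and 804 and 861 in VP16-CREB pools (log2 difference 3.48 ± 0.38, adjusted p = 0.001427), and a second probe set gave 3.32 ± 0.43. H2-Aa, the paired alpha chain, read 216 and 165 against 546 and 577 and was not called (1.52 ± 0.38, adjusted p = 0.1965). Cd74, the invariant chain, differed by 0.64 ± 0.55. In MHC class I and the immunoproteasome, which supply peptides from inside the cell, 3 of 14 rose and the median was 0.69. In each of the class I and class II lists 2 members passed the filter only through VP16-CREB arrays, and without them the medians were 0.69 and 0.82, with 2 and 1 called. H2-K1, a classical class I chain, rose from 973 and 983 to 2553 and 2845 at its brightest probe set (1.45 ± 0.21, adjusted p = 0.01325), and Psmb9, an immunoproteasome subunit, rose from 91.7 and 95.1 to 206 and 190 (1.01 ± 0.19, adjusted p = 0.04979). H2-Q5, annotated by RefSeq as a transcribed pseudogene of the class I cluster, rose from 5.74 and 7.10 to 165 and 132 (3.27 ± 0.27, adjusted p = 0.0001379). Class I genes are near copies of each other, so a probe set of H2-Q5 or H2-K1 can read a relative. The 4 H2-K1 probe sets ranged from 0.04 to 1.91, and the largest of these, called too, read only 6.46 and 2.79 against 50.9 and 38.7. Leaving out any 1 of the 4 arrays ended the calls of the bright H2-K1 probe set (limma adjusted p from 0.07474 to 0.1036) and of Psmb9 (from 0.1432 to 0.336).

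Related innate immune groups held at most 1 call. Among all 12732 genes 0.298% were called higher, and 456 were higher and 200 lower at an unadjusted p under 0.05. Of 26 interferon response genes 1 rose: Gbp2, a guanylate-binding protein, from 112 and 141 to 558 and 326 (1.69 ± 0.27, adjusted p = 0.01954). That call ended without VP16-CREB pool 1 (adjusted p = 0.224), control pool 1 (adjusted p = 0.147) or control pool 2 (adjusted p = 0.07327). A second Gbp2 probe set was not called in limma (1.30, adjusted p = 0.5675). The list's median was 0.50, and 10 members were higher and 0 lower at an unadjusted p under 0.05. Of 8 complement genes 0 were called (4 higher unadjusted, median 0.65). C1qa and C1qb, chains of the initiating C1q complex, read 0.95 ± 0.25 and 0.80 ± 0.26, with both VP16-CREB pools above both littermate pools and adjusted p = 0.2309 and 0.525. Of 16 chemokines and cytokines read at the brightest probe set 0 were called (6 higher and 1 lower unadjusted, median 0.32, or 0.66 without 3 that passed the filter only through VP16-CREB arrays). The brightest, Cx3cl1 (fractalkine) and Il33 (interleukin 33), differed by -0.13 ± 0.20 and 0.05 ± 0.23.

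Reactive astrocyte genes held the second most calls of the lists. Of 23 measured members 5 rose and 0 fell, 11 were higher at an unadjusted p under 0.05, and the median was 0.64. For all 12732 genes these were 0.298% called higher, 456 higher unadjusted and a median of -0.01. Of the 23, 4 passed the filter only through VP16-CREB arrays, so their place in the list depends on being high there; without them 4 were called and the median was 0.58. Gfap, the intermediate filament that marks astrocyte reactivity, read 2766 and 1611 in littermates and 7464 and 7292 in VP16-CREB pools at its brightest called probe set (log2 difference 1.80 ± 0.30, adjusted p = 0.02285). Timp1, an inhibitor of matrix metalloproteinases, rose from 48.3 and 6.50 to 289 and 451 (3.58 ± 0.53, adjusted p = 0.01403). S1pr3, a sphingosine 1-phosphate receptor, rose from 1023 and 696 to 2856 and 2223 (1.57 ± 0.26, adjusted p = 0.02621). Both VP16-CREB pools of these genes exceeded both littermate pools, and control pool 1 was the higher littermate pool for each. Osmr, the oncostatin M receptor, rose from 185 and 200 to 594 and 537 (1.51 ± 0.19, adjusted p = 0.005036). Serpina3n, a secreted protease inhibitor, rose from 923 and 711 to 2460 and 1995 (1.44 ± 0.22, adjusted p = 0.01414). Vim, vimentin, was called at 1 of 3 probe sets (1.47 ± 0.22, adjusted p = 0.01403), and the other 2 read 1.29 and 1.52. Gfap and S1pr3 each had a further called probe set, at 1.92 and 1.53. Each also had one that limma did not call (1.42, adjusted p = 0.1504, and 2.65, adjusted p = 0.4557). A second Osmr probe set was not called either (1.18, adjusted p = 0.453). All 5 calls of the list ended without VP16-CREB pool 1 (limma adjusted p from 0.08664 to 0.2527), while without control pool 1 all 5 were kept. Without VP16-CREB pool 2 those of Timp1, Gfap and S1pr3 ended, and without control pool 2 those of all but Osmr. Among genes of resting astrocytes, 0 of 15 were called (1 higher and 0 lower unadjusted), with a median of 0.11. Slc1a2, the main glutamate transporter, and Aldoc, an astrocytic aldolase, differed by 0.09 ± 0.25 and 0.20 ± 0.24. The summed intensity of the reactive list was 12905 and 10827 in littermates and 26019 and 26471 in VP16-CREB pools, and that of the resting list 92190 and 88635 against 108724 and 92408.

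**Figure D3:**
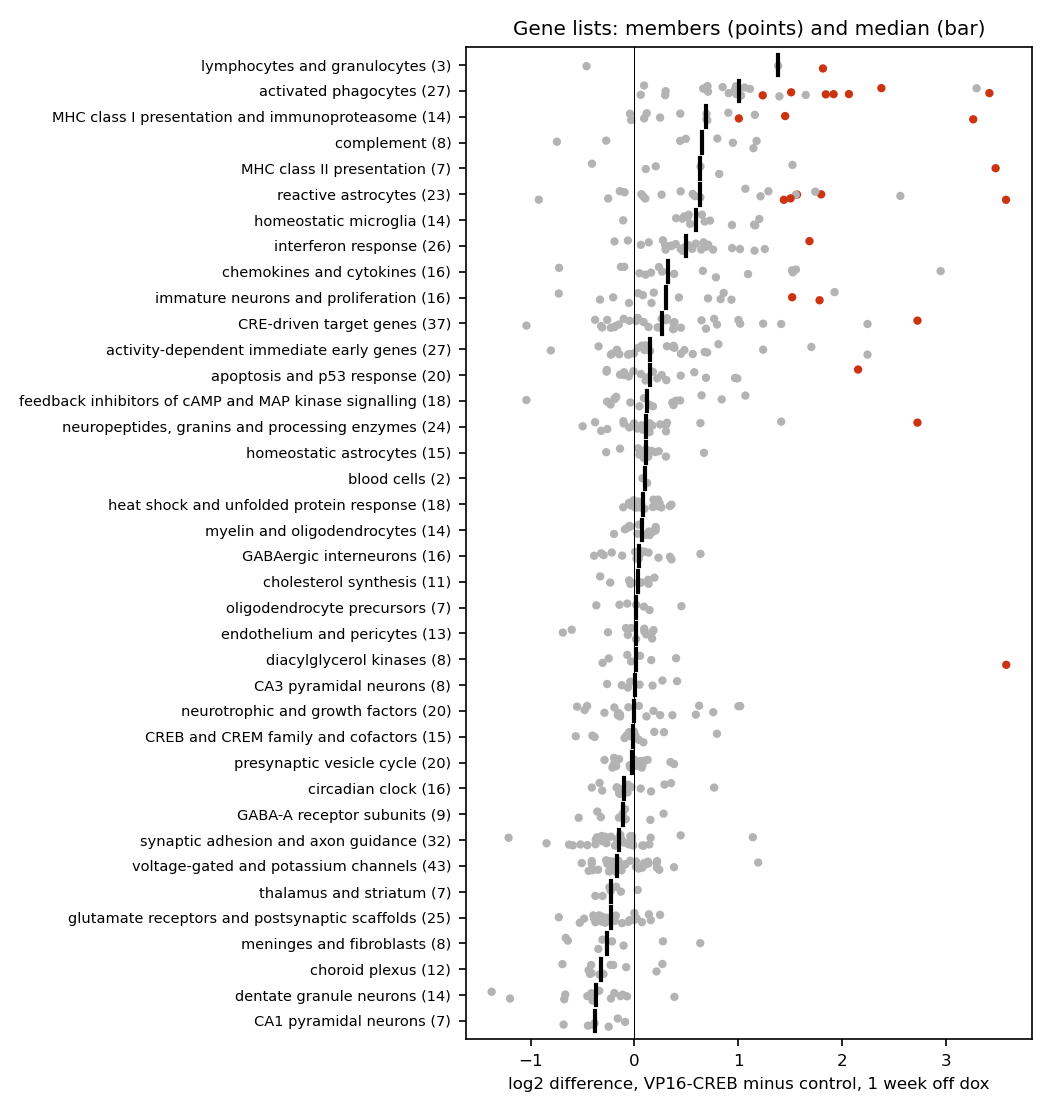
Log2 difference (x axis, VP16-CREB minus control at 1 week off dox) of every measured member of the 38 gene lists, with the number measured in brackets; red points are called, grey points are not, and the black bar is the median. The lists of activated phagocytes and reactive astrocytes hold 7 and 5 red points at medians of 1.01 and 0.64, and no list holds a member called lower.

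Proliferation genes were raised in part. Beside them, 0.298% of all 12732 genes were called higher, 456 were higher at an unadjusted p under 0.05, and the median was -0.01. Of 16 immature neuron and proliferation genes 2 rose and 0 fell, with a median of 0.31 and 6 higher at an unadjusted p under 0.05. Without 1 member that passed the filter only through VP16-CREB arrays the median was 0.19. Top2a, a topoisomerase of dividing cells, read 77.4 and 57.3 in littermates and 239 and 271 in VP16-CREB pools (1.78 ± 0.24, adjusted p = 0.005839). Cdk1, the kinase that drives mitosis, rose from 54.2 and 53.04 to 147 and 202 (1.52 ± 0.27, adjusted p = 0.04023). The Top2a call ended without any array but control pool 1 (adjusted p from 0.05113 to 0.06023), and that of Cdk1 without any 1 array (0.1259 to 0.225). Mki67, the proliferation marker Ki-67, read 36.5 and 20.7 against 158 and 113 and was not called (1.93 ± 0.66, adjusted p = 0.5893). The members that rose are of the cell cycle; the immature neuron gene Dcx, doublecortin, differed by 0.16 ± 0.27. Of 20 apoptosis and p53 response genes, Pmaip1 alone was called, with a median of 0.15 and 4 higher at an unadjusted p under 0.05. Cdkn1a, the p21 inhibitor of the cell cycle, read 424 and 285 against 603 and 789 (0.97 ± 0.30, adjusted p = 0.4645).

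The lists of neuron type markers held no call. Dentate granule neuron genes had a median log2 difference of -0.37. By limma 0 of 14 were called, and 5 were lower and 0 higher at an unadjusted p under 0.05. Pools did not overlap in 9 that were lower and 1 that was higher, against 15.4% and 13.4% of all genes. Calb1, calbindin, read 4472 and 5644 in littermates against 4357 and 4230 (-0.23 ± 0.22, adjusted p = 0.9996), and Stxbp6, a regulator of vesicle fusion, 2893 and 4129 against 2229 and 2123 (-0.67 ± 0.24, adjusted p = 0.6456). Trpc6, a cation channel, was the lowest at 163 and 200 against 61.9 and 65.0 (-1.38 ± 0.37, adjusted p = 0.2712). CA1 pyramidal genes had a median of -0.38, with 0 of 7 called and 0 at an unadjusted p under 0.05. Wfs1, wolframin, read 2627 and 2610 against 1988 and 2024 (-0.38 ± 0.22). The CA1 median rested on control pool 2, since without it the median was -0.10. CA3 pyramidal and GABAergic interneuron genes had medians of 0.01 and 0.05, with 0 called in either.

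No member of the synaptic and channel lists was called, and the medians of these lists lay below 0. Sipa1l1 and P2rx7, described below, are not in these lists. Medians were -0.23 for 25 glutamate receptor and scaffold genes, -0.16 for 43 voltage-gated and potassium channels, -0.15 for 32 adhesion and guidance genes, -0.11 for 9 GABA-A receptor subunits and -0.02 for 20 presynaptic genes, with 0 called in each. At an unadjusted p under 0.05 these lists had, in that order, 1, 2, 4, 1 and 0 members lower and 0, 0, 2, 0 and 0 higher. Pools did not overlap, and were lower, in 9 of the 25 glutamate genes (1 higher), 11 of the 43 channels (2 higher) and 15 of the 32 adhesion genes (1 higher), against 15.4% lower and 13.4% higher of all genes. The channel and GABA-A medians changed sign without control pool 2, to 0.02 and 0.23. Gria1 and Gria2, AMPA receptor subunits, differed by -0.34 ± 0.28 and 0.00 ± 0.34. Camk2a, the kinase of synaptic plasticity, read 10451 and 10516 in littermates and 6600 and 6058 in VP16-CREB pools (-0.73 ± 0.26, adjusted p = 0.6207). Among the 15 adhesion genes was Lrrtm4, a postsynaptic organiser of the dentate gyrus, at 666 and 933 against 347 and 542 (-0.85 ± 0.29, adjusted p = 0.5911). Camk2a and Lrrtm4 were chosen after their values were seen.

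Lists for other cells the dissection could hold had 0 called each. Medians were 0.08 for myelin and oligodendrocytes (14 genes), 0.02 for oligodendrocyte precursors (7), 0.02 for endothelium and pericytes (13), -0.26 for meninges and fibroblasts (8), -0.23 for thalamus and striatum (7) and -0.32 for choroid plexus (12). Choroid plexus RNA was present on every array: Ttr, transthyretin, read 32999 and 26472 in littermates and 38993 and 32571 in VP16-CREB pools. The summed list, Ttr included, read 46478 and 37918 against 49825 and 41344. In this list pools did not overlap in 7 members that were lower and 0 that were higher, against 15.4% and 13.4% of all genes. Hippocampal markers of dentate, CA1 and CA3 neurons were measured on all 4 arrays. Heat shock, clock and cholesterol synthesis genes had medians of 0.08, -0.10 and 0.04, with 0 called.

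With all 4 arrays 5 probe sets fell, and without VP16-CREB pool 2 there were 22 called lower. Dlk1, a Notch-pathway ligand of imprinted expression, read 374 and 269 in littermates and 116 and 77.1 in VP16-CREB pools (log2 difference -1.64 ± 0.30, adjusted p = 0.04979), but a second Dlk1 probe set had overlapping pools (-0.44 ± 0.35). Mtf1, a metal-responsive transcription factor, read 249 and 214 against 77.6 and 92.6 (-1.35 ± 0.25, adjusted p = 0.04979), while its other two probe sets read -0.29 and 0.10. Odf2, a centriole protein, read 31.7 and 34.8 against 3.96 and 2.10 (-1.73 ± 0.25, adjusted p = 0.01047), and Ube2k, a ubiquitin-conjugating enzyme, 28.7 and 37.8 against 6.06 and 7.70 (-1.35 ± 0.24, adjusted p = 0.03639). The bright Ube2k probe set, at 4729 and 3940 against 5134 and 4218, differed by 0.11 ± 0.18. Leaving out any 1 array ended the calls of Dlk1 (limma adjusted p from 0.1004 to 0.2813), Mtf1 (0.1227 to 0.3523) and Ube2k (0.09151 to 0.2544), and any but control pool 1 that of Odf2 (0.07362 to 0.08526). For each of these 4 genes a probe set was lower but no other probe set of the gene was called.

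Odf2 and Ube2k belong to 8 called probe sets that stayed under the filter value of 99.1 on all 4 arrays and passed it on others, 5 higher and 3 lower. Among the higher ones, Sipa1l1, a synaptic GTPase-activating protein, read 4.68 and 4.32 against 75.9 and 55.7 (2.37 ± 0.39, adjusted p = 0.02365), and its bright probe set, at 13345 and 9868 against 13483 and 8631, differed by -0.09 ± 0.27. Neo1, the netrin receptor neogenin, was called at a probe set of 3.73 and 9.25 against 46.0 and 48.5 (1.82 ± 0.32), and its bright probe set differed by 0.00 ± 0.24. P2rx7, an ATP-gated channel of microglia, was called at 11.1 and 10.6 against 50.5 and 78.1 (1.81 ± 0.28), and its other two probe sets read 0.50 and 0.55. Leaving out any 1 array ended the calls of Sipa1l1 (limma adjusted p from 0.07659 to 0.237) and Neo1 (0.08572 to 0.2236), and any but VP16-CREB pool 1 that of P2rx7 (0.09033 to 0.116). No detection calls were used here, so whether such values stand above background was not tested. The remaining named genes that were called, listed after their values were seen, were all higher, by log2 differences from 1.20 to 1.76: Mpeg1, Capg, Slc15a3, Icam1, Edem1, Tlr2, Gusb, Grpr, S100a6, D17H6S56E-5, Ptprc and Plek. Other probe sets of some of these were not called: the brighter one of Edem1 differed by 0.25 (adjusted p = 0.9996), the second of Gusb by 0.61 (adjusted p = 0.9632), the second of D17H6S56E-5 by 1.07, and the others of Plek by 1.12 or more. Several are leukocyte genes, such as Ptprc (CD45), Plek (pleckstrin), Mpeg1 (perforin-2) and Tlr2 (a Toll-like receptor). Gusb is the lysosomal beta-glucuronidase, and Grpr the receptor for gastrin-releasing peptide.

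The early profile was then set beside that of VP16-CREB mice 3 weeks off dox, which were 6 weeks old and had 3 pools on each side with littermates of their own. Of the 59 probe sets called higher at 1 week, 51 (86.44%) were also called higher at 3 weeks, which is 5.756% of the 886 called higher there (3.28% of all tested). Of the 5 called lower, 0 were among the 176 called lower there (0.651%). The median log2 difference of the 59 was 1.82 at 1 week and 2.52 at 3 weeks, and 43 of them were larger at 3 weeks. Clec7a, for example, stood at 3.42 and 5.29, Cd52 at 2.38 and 4.28 and Fcgr2b at 1.51 and 3.22. Pdyn was close to level, at 2.73 and 3.03, as was the called Fyb probe set, at 2.11 and 2.11. The brighter Fyb probe set stood at 0.57 and 1.96, and Creb1 at 5.01 and 4.26. The 13 probe sets called at 1 week and not at 3 weeks include 7 of the 8 dim ones. Top2a was another, at 1.78 and 0.71. Only 1 probe set, 1458916_at, passed the test of the difference between times (0.0037%), and 1349 did at an unadjusted p under 0.05. None of the named genes was therefore shown to differ between the times.

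**Figure D4:**
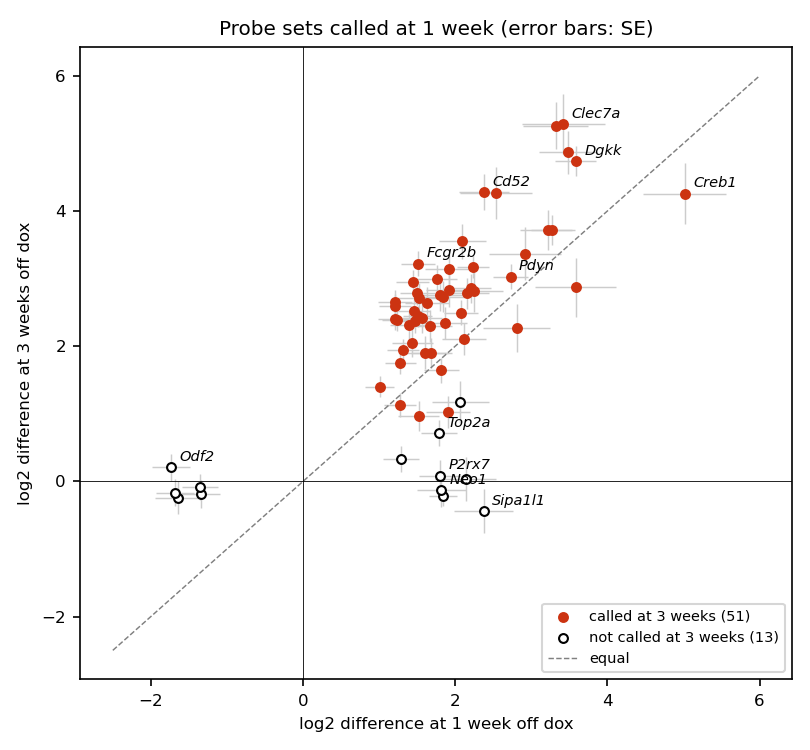
Log2 difference (VP16-CREB minus control) of the 64 probe sets called at 1 week, at 1 week on the x axis and at 3 weeks off dox on the y axis, with SE bars and a dashed line of equality. The 51 also called at 3 weeks (red) lie mostly above the line, and the 13 not called there (white) include Sipa1l1, Neo1 and P2rx7 near 0 at 3 weeks.

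Read the other way, most of the later response already leaned in its direction at 1 week. The 886 probe sets called higher at 3 weeks had a median log2 difference of 0.52 at 1 week, and 92.66% were above 0, against 52.95% of all tested. Pools at 1 week did not overlap, and were higher, in 68.85% of them, against 15.7% of all. The 176 called lower at 3 weeks had a median of -0.30 at 1 week, 87.5% were below 0, against 47.02% of all, and 56.82% had lower, non-overlapping pools, against 12.9%. By list, the 27 activated phagocyte genes went from 7 called higher at 1 week to 24 at 3 weeks. The 14 homeostatic microglia genes went from 0 to 12 and the 26 interferon genes from 1 to 21. The 14 dentate granule genes went from 0 to 10 called lower. Calls rose over all 12732 genes too, from 38 to 585 higher and from 1 to 110 lower. The 2 times differ in the number of pools (2 against 3 on each side), and age and cohort changed with the time off dox, so these cannot be told apart. The arrays of the later cohort also had higher median intensities, from 118.9 to 129.3.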

How the data were processed

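Labelled RNA of 16 pooled hippocampal samples was hybridised to the Affymetrix mouse genome 430 2.0 array. The deposited values are linear MAS5 signal intensity per probe set, per the submitters' processing notes (version not given in the sources used here). Each array's mean, without its lowest and highest 2%, was 500. Computed here were log2(intensity + 10) and a filter (above 99.1, the median of all non-control values, on at least 2 of the 16 arrays), which kept 27044 of 45101 probe sets. They were fitted with limma 3.58.1 in R 4.3.3 (lmFit and eBayes, 1 coefficient per group, 10 residual degrees of freedom) and Benjamini-Hochberg adjusted over all of them. The difference between times was tested in the same fit. Fold changes are on the log2(intensity + 10) scale, which understates those of dim genes. Depth does not apply to arrays; their number limits the precision.

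Symbols came from the platform annotation: 34945 probe sets had 1 symbol, 932 several and 9160 none, and only the first kind was named. Gene lists were read at each gene's probe set of highest mean. A gene was named if, with pools that do not overlap, it ranked in the first 20 by size of rise or first 15 by size of fall (4 called falls existed), if it was among at most 5 called genes of a list, or if it was 1 of the 2 brightest where a list held no call; all Creb1 and Crem probe sets were also named. Promoters printed were those of the 20 rises with TGACGTCA or, with none, TGACG, at most 6. Added after their values were seen were Apoe, Atf3, Bdnf, Camk2a, Cd74, Cd8a, Cdkn1a, Crtc1, Cst7, Dcx, Fcgr2b, Fcgr3, Fos, H2-Aa, Lpl, Lrrtm4, Mki67, Neo1, Npy, P2rx7, Pcsk1, S100a8, Sik1, Trpc6, Vim and, as checks, Cd3e, Ms4a1 and Xist. The members and lists were chosen with earlier results of these data known. The fit was tested on simulated data, with noise independent between probe sets and between arrays and no effect shared within a pool. Of 40 probe sets raised 2-fold, 17 (42.5%) were called, and of 40 raised 4-fold, 34 (85%). Of 40 lowered 2-fold, 9 (22.5%) were called, and of 40 lowered 4-fold, 31 (77.5%), with 8 false calls over 27044. Such noise leaves out differences between whole pools, so these figures do not cover the dependence of the calls on single pools. Alternatives were another pseudocount or none, other filters, median centring, quantile normalization, array weights, trended robust variances, 1 probe set per gene, the compared arrays alone, a replicate block and leaving out each array.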

Additional observations from a re-analysis of the deposited data

Results flagged for a closer look

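Probe set 1458916_at, which has no gene symbol in the annotation used, was the only one whose VP16-CREB effect passed the limma test of a difference between 3 weeks and 1 week off dox. The effect at 3 weeks minus that at 1 week was -2.05 (log2, adjusted p = 0.02014). At 1 week it read 4.91 and 6.13 in littermates and 52.9 and 38.8 in VP16-CREB pools. It was called higher there (log2 difference 1.84 ± 0.18, adjusted p = 0.0007332) and stood at -0.21 at 3 weeks. It stayed under the filter value on all 4 arrays of the 1-week cohort.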

How the results depend on the processing

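With 64 probe sets called at 1 week, array weights gave 31, no filter 32, and the 4 arrays alone 0 (1284 at an unadjusted p under 0.05). Leaving out 1 array gave 16 to 45 calls, and without VP16-CREB pool 2 only 17 of 39 were higher. Median centring moved the median of all probe sets from 0.02 to -0.09 and the calls to 50 higher and 12 lower, from 59 and 5. The other settings gave 50 to 70. The called genes kept their sign throughout, while 32 of 59 named uncalled probe sets changed sign in at least 1 setting, as did list medians in 38 fits. The difference between times, 1 call, gave 0 with 1 probe set per gene, centring, a filter on the mean, no filter or a pseudocount of 25 (689 to 2300 at an unadjusted p under 0.05), 2 without a pseudocount, 3 with array weights, 9 on the compared arrays and 21 after quantile normalization. Leaving out 1 array gave 0 to 5 calls. The share of promoters with a CRE, 2.4%, was 26.8% for the core. The causes were not tested. Replicate numbers were also fitted as a block: 23 calls at 1 week, 21 of them shared, and 0 for the difference (1605 unadjusted). Deviations of same-numbered pools correlated at r = 0.153 at 1 week and at -0.16, -0.23 and 0.22 at 3 weeks. In the A-CREB cohort they correlated at -0.05, 0.41 and 0.27. Whether pools of the same number share a batch was not tested. No detection calls were used, so signal over background limits the dim probe sets.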
